A study of Mus musculus with 6 samples.

Results

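The endoplasmic reticulum (ER) secretion and stress genes are 38 named genes for moving proteins into the ER, folding them there, removing those that misfold, and sensing the load. They were matched by symbol through the GENCODE mouse M21 annotation, by a rule that sets no threshold on a measured value. The symbols matched 39 of the 55401 gene IDs in the files. *Ddit3* alone had 2 IDs, and the one with 105 bases of exon reached at most 0.1 FPKM (fragments scaled to exon length and library size), so 38 genes were counted. Bulk RNA was sequenced from lamina propria cells, the cells of the connective layer under the gut epithelium, isolated from the colon of male *Apc* Min/+ mice aged 5 to 6 weeks. All 6 libraries carry this allele, a germline mutation in 1 copy of the tumour suppressor *Apc*, so no library comes from a wild-type mouse. Vehicle mice (3 libraries) received 2% Tween 80 by gavage every second day, and atorvastatin mice (3 libraries) received the statin, an inhibitor of cholesterol synthesis, at 20 mg/kg. Whether libraries of 1 group stand for separate mice or for pools is not in the labels. The p-values therefore cover library-to-library spread only, part of which may be technical.

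Secreted and membrane proteins enter the ER through the Sec61 channel, lose their signal peptide to the signal peptidase, and fold with the help of Hsp70- and Hsp90-type chaperones, sugar-binding chaperones and disulphide isomerases. Proteins that fail to fold are sent back to the cytosol and degraded. A rising load is sensed by IRE1 (*Ern1*), ATF6 and PERK (*Eif2ak3*), which together raise chaperone genes and slow translation in the unfolded protein response. Plasma cells, which secrete antibody at a high rate and are plentiful in the gut wall, depend on this machinery and on XBP1, the transcription factor made after IRE1 splices its mRNA.

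Some of the members' promoters carry DNA elements through which ATF6 and XBP1 are known to act, and these sites are printed because members of 1 role differ in whether they hold one. RefSeq promoters of build GRCm38.p6, from 250 bases before to 50 bases after the annotated start, were matched for 31 of the 38 genes. The unmatched genes were *Atf6*, *Hyou1*, *Manf*, *Sec11c*, *Sec61a1*, *Spcs3* and *Ssr2*. The ER stress response element (ERSE), CCAAT and CCACG with 9 bases of any kind between them, was searched on both strands. It was present in 8 of the 31 promoters and in 39 of 32851 promoters of the table (0.119%). Its sites are given on the strand of the element, with the element in capitals and 10 bases on either side:

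Hspa5, chr2:34772015-34772053, plus strand: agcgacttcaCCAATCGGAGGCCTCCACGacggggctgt
Hsp90b1, first site, chr10:86705628-86705666, minus strand: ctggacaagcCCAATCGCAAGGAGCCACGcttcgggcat
Hsp90b1, second site, chr10:86705523-86705561, plus strand: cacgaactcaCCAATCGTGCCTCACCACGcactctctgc
Calr, chr8:84847065-84847103, plus strand: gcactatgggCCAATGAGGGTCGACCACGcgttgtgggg
Canx, chr11:50325790-50325828, minus strand: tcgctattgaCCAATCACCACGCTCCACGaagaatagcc
Pdia6, chr12:17266481-17266519, plus strand: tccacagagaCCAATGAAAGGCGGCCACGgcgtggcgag
Dnajc3, chr14:118937817-118937855, plus strand: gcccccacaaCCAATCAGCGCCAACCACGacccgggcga
Creld2, chr15:88819510-88819548, minus strand: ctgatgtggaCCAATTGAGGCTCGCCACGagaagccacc
Syvn1, chr19:6046522-6046560, plus strand: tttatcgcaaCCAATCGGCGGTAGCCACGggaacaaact

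The 2 *Hsp90b1* sites face opposite ways, and the sites of *Calr* and *Creld2* also run against the direction of their gene. The related ERSE-II, ATTGG and CCACG with 1 base of any kind between them, was present in 2 of the 31 promoters against 12 of 32851 (0.0365%). Its 2 genes are *Herpud1*, a membrane protein of the degradation complex, and *Dnajb11*, a partner of the chaperone BiP, where the site lies just past the RefSeq start:

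Herpud1, chr8:94386367-94386397, plus strand: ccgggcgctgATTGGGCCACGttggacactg
Dnajb11, chr16:22857842-22857862, plus strand: cccggcggcgATTGGCCCACG

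The core CCACG, which both elements contain, was in 24 of the 31 promoters against 32.8% of all promoters. The element TGACGTGG (UPRE) was in 0 of 31 against 0.676%, and the ATF4 element TGATGCAA in 1 of 31, *Herpud1*, against 0.895%. These matches describe the letters in the window and not binding. The 250 bases before the start of *Hspa5*, which encodes BiP, and of *Herpud1* are printed in full with these elements in capitals, since *Hspa5* was the most abundant member and *Herpud1* holds 2 kinds of element. The ATF4 element of *Herpud1* lies on the opposite strand and so reads TTGCATCA here:

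Hspa5, chr2:34771840-34772089, plus strand: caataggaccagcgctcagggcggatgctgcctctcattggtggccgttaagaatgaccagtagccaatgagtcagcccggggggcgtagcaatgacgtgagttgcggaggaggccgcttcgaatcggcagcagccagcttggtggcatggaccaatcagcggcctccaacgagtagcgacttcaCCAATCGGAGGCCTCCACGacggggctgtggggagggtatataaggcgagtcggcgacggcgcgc
Herpud1, chr8:94386179-94386428, plus strand: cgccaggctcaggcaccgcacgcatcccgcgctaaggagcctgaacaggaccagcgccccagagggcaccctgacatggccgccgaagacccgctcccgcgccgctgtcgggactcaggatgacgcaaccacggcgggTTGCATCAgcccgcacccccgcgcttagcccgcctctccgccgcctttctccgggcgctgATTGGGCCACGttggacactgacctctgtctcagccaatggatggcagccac

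Across libraries the FPKM summed to between 355787 and 456064, 13303 to 13703 genes reached 1 FPKM, and the number of fragments is unknown. Vehicle library 3 stood apart, with a mean Pearson's r across genes of 0.944 to the other 5 libraries against 0.957 to 0.961 for each of them. Lamina propria markers were present: all 12 plasma cell, 10 B cell, 8 T cell, 8 macrophage and 7 fibroblast markers passed the filter of at least 1 FPKM in at least 3 libraries. Immunoglobulin genes held 27.93% to 47.88% of the summed FPKM, with the highest share in atorvastatin library 2. Of 7 epithelial markers 5 passed the filter and of 6 goblet cell markers 3 did, and *Tff3*, a goblet cell product, was at 0 in vehicle libraries 2 and 3. The bulk values cannot tell fewer cells of a type from less RNA per cell.

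All 38 genes passed the filter, and their mean levels ran from 5.91 FPKM for *Sec11a*, a catalytic subunit of the signal peptidase, to 527.67 FPKM for *Hspa5*. The members summed to between 2229 FPKM in vehicle library 2 and 2818 FPKM in vehicle library 3, which was 0.541% to 0.669% of a library. *Hspa5* alone made up 17.5% to 23.6% of that sum. The most even genes over the 6 libraries were *P4hb*, a disulphide isomerase, and *Canx*, a membrane lectin chaperone, with a highest value 1.15 and 1.16 times the lowest. The most uneven was *Spcs2*, a signal peptidase subunit, at 3.2 times.

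**Figure D1:**
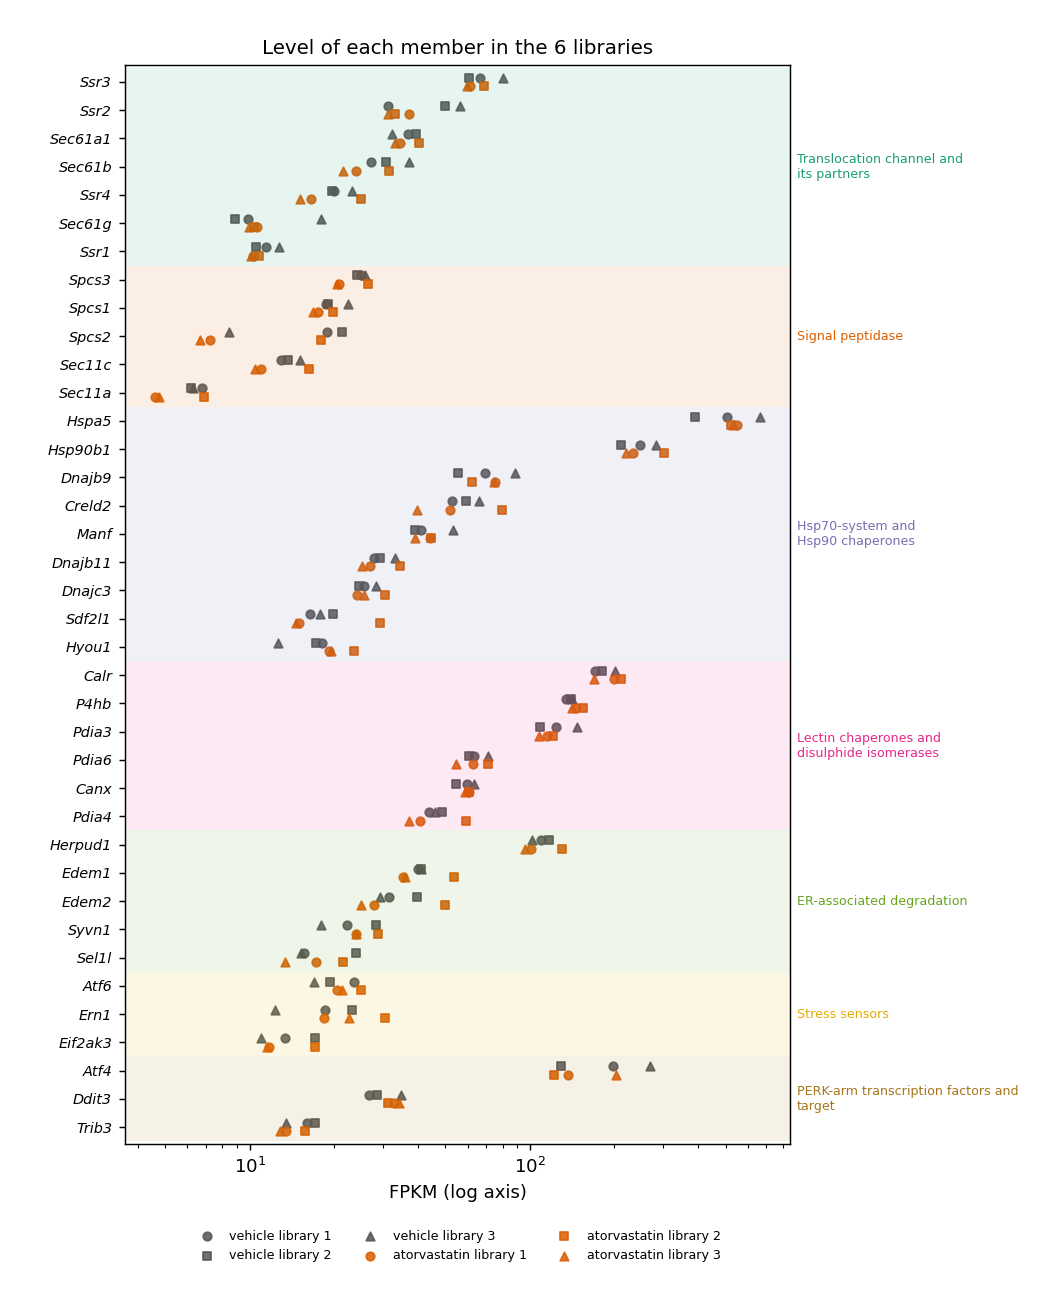
FPKM of the 38 genes in each library (log axis), with vehicle libraries in grey and atorvastatin libraries in orange, marker shapes for library numbers and bands for roles. *Hspa5* lies between 389.73 and 664.47 FPKM, *Sec11a* between 4.60 and 6.89 FPKM, and in 36 of the 38 genes the groups overlap.

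Atorvastatin was compared with vehicle, which asks how the statin changes expression in these cells. No ER gene passed the test: 0 of 38 had an adjusted p under 0.05 in limma (limma-trend on log2(FPKM + 1), Benjamini-Hochberg over 13590 genes). The background was 0% of all genes tested, and the lowest adjusted p over all genes was 0.291. At an unadjusted p under 0.05 there were 0 of 38, against 7.17% of all genes. The groups did not overlap in 2 of 38, both higher with atorvastatin, against 14.4% of all genes, 5.53% higher and 8.85% lower. The members' differences of log2(FPKM + 1) ran from -0.61 (*Spcs2*) to 0.39 (*Ern1*), with a median of -0.05 where all genes had -0.02. Of the 38 differences 14 were above 0 and 24 below 0, where 53% of all genes tested lay below 0. Scaled to equal sums without immunoglobulin and mitochondrial genes the split was 23 above and 15 below, with a median of 0.03. It was 17 above and 21 below with median-of-ratios scaling (median -0.02), and 16 above and 22 below with the length trend removed (median -0.03). Of these alternatives only equal sums turned the sign of the median. With equal sums the counts above 0 became 8 of 9 for the Hsp70-system and Hsp90 chaperones and 5 of 6 for lectins and isomerases. They became 5 of 5 for degradation and 3 of 3 for the sensors. The sums divided out were 237626 to 264095 FPKM with vehicle and 221558 to 246524 FPKM with atorvastatin, so this scaling moves genes in general upward with atorvastatin. The share of all genes above 0 under it is not given here, so these counts are not specific to the roles. The 95% interval stayed between -1 and 1 on the log2 scale in 35 of the 38, against 89.8% of all genes, and the exceptions were *Spcs2*, *Ern1* and *Atf4*.

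**Figure D2:**
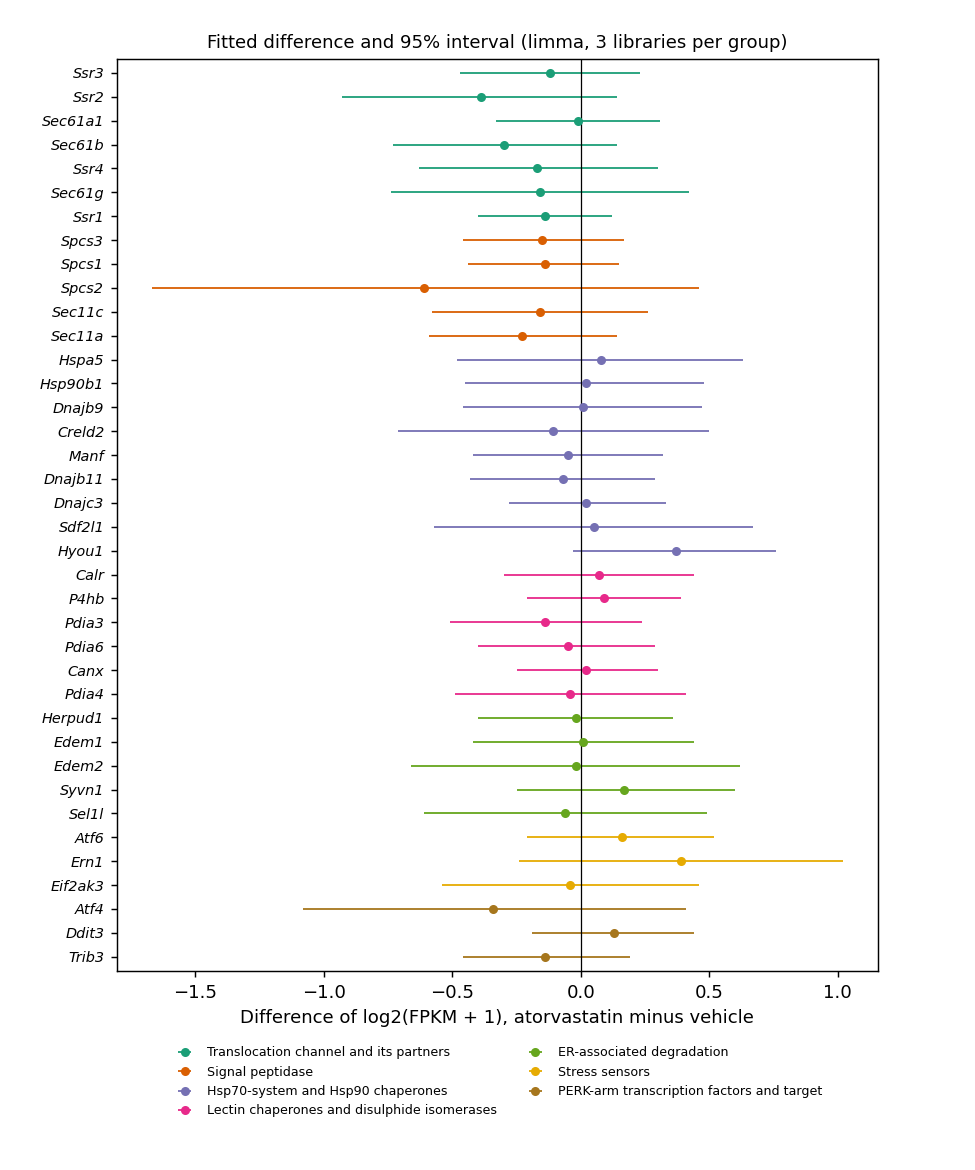
Difference of log2(FPKM + 1), atorvastatin minus vehicle, for each of the 38 genes with its 95% interval from limma (3 libraries per group), coloured by role. Every interval includes 0, and those of *Spcs2* (-1.67 to 0.46), *Atf4* (-1.08 to 0.41) and *Ern1* (-0.24 to 1.02) reach past 1 unit.

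Of the translocation channel and its partners, 7 genes, 0 passed the test and all 7 differences lay below 0, with a median of -0.16. With scaling by median-of-ratios or to equal sums 6 of the 7 did, *Sec61a1* being above 0. The most abundant, *Ssr3*, encodes a subunit of the TRAP complex, which sits beside the channel, and had 66.45, 60.78 and 80.50 FPKM in vehicle libraries 1 to 3 and 61.27, 68.55 and 59.92 FPKM in atorvastatin libraries 1 to 3. Its groups overlapped, and the difference was -0.12 (SE 0.15, adjusted p = 0.848 in limma). *Ssr2*, another TRAP subunit, had 31.33, 49.98 and 56.59 FPKM with vehicle and 37.21, 33.08 and 31.14 FPKM with atorvastatin. Vehicle library 1 lay among the atorvastatin libraries and the other vehicle libraries above them, with a difference of -0.39 (SE 0.23, adjusted p = 0.711 in limma). Without vehicle library 1 the *Ssr2* groups did not overlap, and the difference was -0.64 with an unadjusted p = 0.00664 and an adjusted p = 0.791 in limma. The channel's own genes did not move in step. *Sec61a1*, the pore subunit, ranged from 32.21 to 40.25 FPKM, and *Sec61g*, a small subunit, had 17.92 FPKM in vehicle library 3 and 8.86 to 10.61 FPKM in the other 5 libraries.

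All 5 signal peptidase genes had differences below 0, with a median of -0.16, and 0 of 5 passed the test. This sign held under each of the 15 alternatives of scaling, filter, test and left-out library. *Spcs3*, an accessory subunit and the most abundant, had 24.95, 24.19 and 25.83 FPKM with vehicle and 20.93, 26.48 and 20.46 FPKM with atorvastatin. *Spcs1*, another accessory subunit, had 18.80, 19.06 and 22.52 FPKM with vehicle and 17.58, 19.88 and 16.88 FPKM with atorvastatin. In both, atorvastatin libraries 1 and 3 lay below every vehicle library and atorvastatin library 2 did not. *Spcs2* (chromosome 7, 99837569 to 99863462, minus strand, GRCm38), singled out after its values were seen, had 18.95, 21.30 and 8.46 FPKM with vehicle and 7.21, 17.95 and 6.66 FPKM with atorvastatin. The 6 libraries formed a high set (vehicle 1 and 2, atorvastatin 2) and a low set (vehicle 3, atorvastatin 1 and 3) that cut across the treatment. Its difference was -0.61 (SE 0.45, adjusted p = 0.75 in limma), with a value of -1.03 when atorvastatin library 2 was left out and of -0.99 when vehicle library 3 was. The catalytic subunits *Sec11c* and *Sec11a* kept a narrow ratio, with *Sec11c* at 1.92 to 2.42 times the FPKM of *Sec11a* in every library.

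The Hsp70-system and Hsp90 chaperone genes, 9 in all, had 6 differences above 0 and 3 below, with a median of 0.02, and 0 of 9 passed the test. *Hspa5* (chromosome 2, 34771970 to 34777547, plus strand, GRCm38) encodes BiP, the Hsp70 of the ER and the usual marker of the unfolded protein response. It had 504.61, 389.73 and 664.47 FPKM with vehicle and 551.56, 522.15 and 533.48 FPKM with atorvastatin. The vehicle libraries held both the lowest and the highest value and the atorvastatin libraries lay between them. The mean was 519.6 ± 138 FPKM (SD, n = 3) with vehicle and 535.7 ± 14.83 FPKM (SD, n = 3) with atorvastatin, a difference of 0.08 with a 95% interval of -0.48 to 0.63. Without vehicle library 3 the *Hspa5* groups did not overlap (difference 0.27), and without vehicle library 2 the sign turned (-0.11). *Hsp90b1*, the Hsp90 of the ER, had 248.32, 212.32 and 283.11 FPKM with vehicle and 232.90, 302.66 and 220.36 FPKM with atorvastatin, and its groups overlapped, with atorvastatin library 2 the highest and vehicle library 2 the lowest.

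*Hyou1* (chromosome 9, 44379490 to 44392369, plus strand, GRCm38), a large Hsp70-related exchange factor for BiP, was 1 of the 2 members whose groups did not overlap. It had 18.15, 17.29 and 12.64 FPKM with vehicle and 19.27, 23.51 and 19.61 FPKM with atorvastatin. The gap between the groups was narrow beside the spread within vehicle, where library 3 lay well below the others. The difference was 0.37 (SE 0.16, 95% interval -0.03 to 0.76, unadjusted p = 0.0627, adjusted p = 0.696 in limma), and 0.21 without vehicle library 3. *Hyou1* and *Hspa5* were at odds in that library: it held the lowest *Hyou1* value and the highest *Hspa5* value, and the FPKM ratio of *Hspa5* to *Hyou1* was 52.6 there and 22.2 to 28.6 in the other 5 libraries. *Creld2*, an ER stress-induced folding factor, and *Sdf2l1*, a partner of BiP and its J proteins, had their highest values in atorvastatin library 2 (79.52 and 29.19 FPKM) and their lowest in atorvastatin library 3 (39.45 and 14.67 FPKM). Their spread within the atorvastatin group was as wide as over all 6 libraries.

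Of the lectin chaperone and disulphide isomerase genes, 3 of 6 had differences above 0 and 3 below, with a median of -0.01, and 0 of 6 passed the test. *Calr*, a soluble lectin chaperone that binds sugar chains of new glycoproteins, had 170.89, 180.88 and 201.03 FPKM with vehicle and 200.42, 211.96 and 170.24 FPKM with atorvastatin. The vehicle libraries lay inside the range of the atorvastatin libraries. *P4hb*, which forms and rearranges disulphide bonds, had 134.64, 140.91 and 141.43 FPKM with vehicle and 146.18, 155.33 and 142.10 FPKM with atorvastatin. Its groups did not overlap, but the nearest values of the groups were under 1 FPKM apart, and the difference was 0.09 (95% interval -0.21 to 0.39, adjusted p = 0.874 in limma). With median-of-ratios scaling, and with equal sums, the *P4hb* groups overlapped. *Pdia3*, *Pdia4* and *Pdia6*, further isomerases, had mean levels of 120.8, 45.85 and 63.85 FPKM over the 6 libraries and differences of -0.14, -0.04 and -0.05.

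The ER-associated degradation genes had 2 of 5 differences above 0 and 3 below, with a median of -0.02, and 0 of 5 passed the test. *Herpud1* had 109.47, 117.14 and 102.30 FPKM with vehicle and 101.15, 129.93 and 96.29 FPKM with atorvastatin. *Edem1*, a mannosidase-like protein that marks misfolded glycoproteins, had 40.08, 41.01 and 40.89 FPKM with vehicle and 35.33, 53.87 and 35.75 FPKM with atorvastatin. In both genes the vehicle libraries lay inside the spread of the atorvastatin libraries, of which library 2 was high and the other two low. *Edem2*, its relative, had the same shape with 27.70, 49.96 and 25.08 FPKM with atorvastatin, and vehicle library 2 was the next highest at 39.67 FPKM. *Sel1l* and *Syvn1*, the adaptor and the ubiquitin ligase of the degradation channel, had differences of -0.06 and 0.17.

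Of the 3 stress sensors, 0 passed the test, with differences of 0.39 for *Ern1*, 0.16 for *Atf6* and -0.04 for *Eif2ak3*. *Ern1*, the kinase and RNase that splices *Xbp1* mRNA, had 18.66, 23.21 and 12.29 FPKM with vehicle and 18.42, 30.34 and 22.57 FPKM with atorvastatin. *Atf6*, a membrane-bound transcription factor freed by cleavage, had 23.58, 19.40 and 16.95 FPKM with vehicle and 20.47, 24.91 and 21.44 FPKM with atorvastatin. *Eif2ak3*, the PERK kinase, had 13.42, 17.15 and 11.01 FPKM with vehicle and 11.73, 17.10 and 11.52 FPKM with atorvastatin. Vehicle library 3 was the lowest library for all 3 sensors, and the groups overlapped in each. The difference of *Ern1* was 0.16 without vehicle library 3 and 0.59 without vehicle library 2, and that of *Atf6* 0.05 without vehicle library 3 and 0.28 without vehicle library 1.

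The genes downstream of PERK had 1 of 3 differences above 0 and 2 below, and 0 of 3 passed the test. *Atf4* (chromosome 15, 80255184 to 80257541, plus strand, GRCm38), the factor whose translation rises when PERK is active, had 198.05, 129.02 and 268.38 FPKM with vehicle and 137.34, 122.19 and 202.75 FPKM with atorvastatin. It was the only member with its lowest value in atorvastatin library 2, and its difference was -0.34 (SE 0.31, adjusted p = 0.806 in limma). The value was -0.09 without vehicle library 3 and -0.61 without vehicle library 2. *Ddit3*, which encodes the pro-apoptotic factor CHOP, had 26.73, 28.60 and 34.68 FPKM with vehicle and 32.77, 31.10 and 34.11 FPKM with atorvastatin. *Trib3*, a pseudokinase induced by ATF4 and CHOP, had 16.04, 17.11 and 13.47 FPKM with vehicle and 13.45, 15.81 and 12.80 FPKM with atorvastatin. The 3 genes did not rank the libraries alike: vehicle library 3 was the highest for *Atf4* and *Ddit3*, and vehicle library 2 for *Trib3*.

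Among single libraries the members were not spread evenly. Atorvastatin library 2 held the highest value of 21 of the 38 genes, where it held the highest of 7.22% of all genes tested. The count was 23 with median-of-ratios scaling (14% of all genes) and 27 with equal sums (16.7%). Vehicle library 3 held the highest of 13 (27.3% of all genes), vehicle library 2 of 4 (23.6%), and the other libraries of 0. With equal sums vehicle library 3 held the highest of 7 (16.4%) and atorvastatin library 3 of 1 (22.9%). The lowest value lay in atorvastatin library 3 for 20 of the 38 (10.8% of all genes), for 22 with median-of-ratios scaling (15.4%) and for 13 with equal sums (10.3%).

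**Figure D3:**
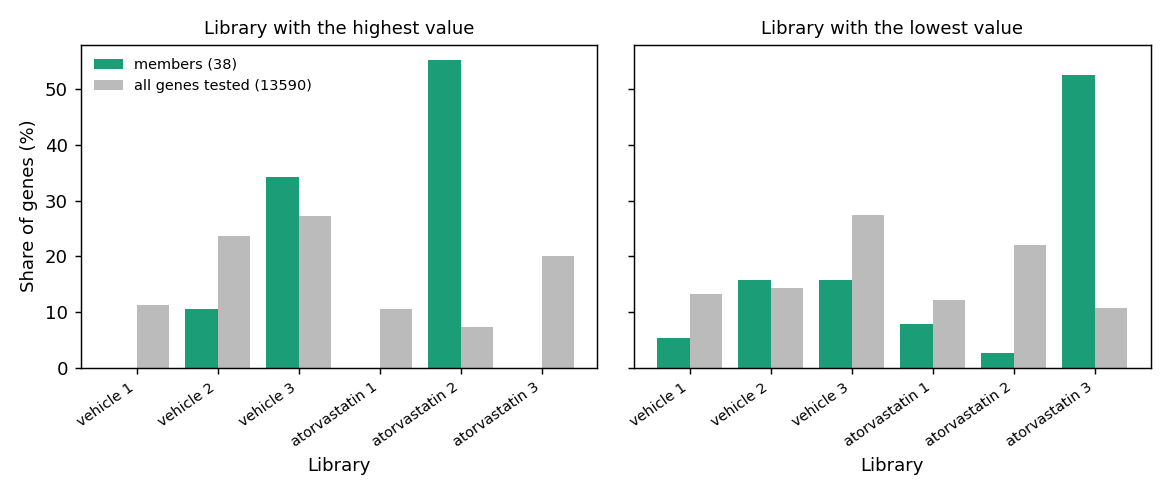
Share of the 38 genes and of all 13590 genes tested whose highest value (left) or lowest value (right) lies in each library. Atorvastatin library 2 is the highest for 21 of 38 genes against 7.22% of all genes, and atorvastatin library 3 the lowest for 20 against 10.8%.

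The genes at their highest in atorvastatin library 2 were 4 of 5 for degradation, 6 of 9 Hsp70-system and Hsp90 chaperones, 4 of 6 lectins and isomerases, 3 of 5 for the signal peptidase, 2 of 3 sensors, 2 of 7 for translocation and 0 of 3 downstream of PERK. Vehicle library 3 held the highest value of 5 of the 7 translocation genes, and also of *Hspa5*, *Dnajb9*, a J protein that works with BiP, *Manf*, a secreted stress-induced factor, *Canx*, *Pdia3*, *Spcs1*, *Atf4* and *Ddit3*. The 2 highest libraries were vehicle 2 and atorvastatin 2 for 10 of the 38, among them *Edem1*, *Edem2*, *Sel1l*, *Syvn1*, *Herpud1* and *Ern1*, against 8.63% of all genes. By promoter, atorvastatin library 2 was the highest for 8 of the 10 genes with an ERSE or ERSE-II and for 8 of the 21 matched genes without. The differences had a median of 0.02 (-0.11 to 0.17) in the first set and -0.12 (-0.61 to 0.39) in the second, and the first set was also more abundant, with a median level of 61.7 against 20.9 FPKM. Neither contrast was tested.

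**Figure D4:**
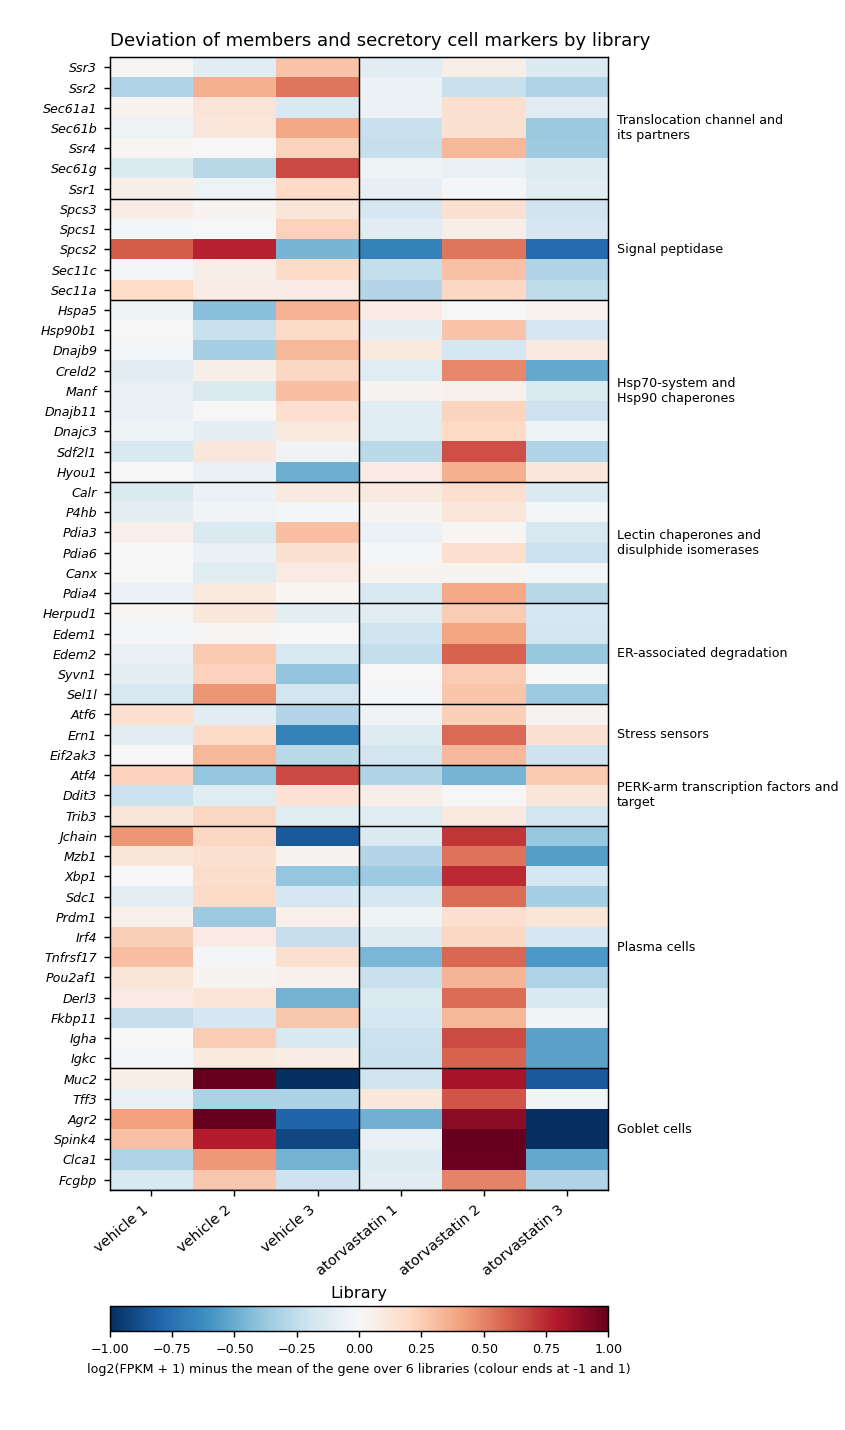
Deviation of log2(FPKM + 1) from the gene's mean over 6 libraries (red above, blue below, colours ending at -1 and 1) for the 38 genes by role and for 12 plasma cell and 6 goblet cell markers. The atorvastatin 2 column is red for most degradation genes, sensors and plasma cell markers, with mean deviations of 0.35, 0.38 and 0.50 for these lists.

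Plasma cell markers shared the high values of atorvastatin library 2 but not those of vehicle library 3. Goblet cell markers shared those of atorvastatin library 2 in part. Vehicle library 3 held the highest value of 13 members and of 0 of 12 plasma cell markers. Mean deviations there were -0.13 for plasma cell markers, -0.17 for degradation genes and -0.41 for sensors. They were above 0 for every other role, from 0.03 (signal peptidase) to 0.31 (translocation). Atorvastatin library 2 was the highest for 11 of 12 plasma cell markers and 4 of 6 goblet cell markers. Among these goblet cell markers *Tff3*, *Clca1* and *Fcgbp* did not pass the filter. Of the goblet cell markers that passed, *Spink4* was the highest in that library, and *Muc2* and *Agr2* were the highest in vehicle library 2. *Jchain*, the joining chain of secreted antibody, had 3395.50, 2889.85 and 1396.69 FPKM with vehicle and 2279.10, 4117.39 and 1921.83 FPKM with atorvastatin. *Xbp1*, counted among the plasma cell markers and among the further ER genes, had 102.18, 114.98 and 77.59 FPKM with vehicle and 78.87, 171.00 and 89.83 FPKM with atorvastatin (difference 0.14, SE 0.31, adjusted p = 0.927 in limma). Atorvastatin library 2 was the highest for *Jchain* and *Xbp1*, and the other atorvastatin libraries lay below vehicle libraries 1 and 2. *Mzb1* and *Fkbp11* were also counted among both the plasma cell markers and the further ER genes. The plasma cell markers are therefore not a set separate from ER genes. The goblet cell markers summed to 11.07, 20.94 and 3.18 FPKM with vehicle and 7.56, 22.63 and 2.68 FPKM with atorvastatin, so vehicle 2 and atorvastatin 2 were the high libraries. The epithelial markers summed to 27.08, 41.48 and 40.29 FPKM with vehicle and 20.41, 42.17 and 16.56 FPKM with atorvastatin, low in the same 2 atorvastatin libraries as the signal peptidase genes. Between the treatments, B cell markers had differences below 0 in 10 of 10 (median -0.44), and 0 passed the test. The groups did not overlap in 7 of them, where 8.85% of all genes were lower without overlap. At an unadjusted p under 0.05 in limma there were 6, where 4.04% of all genes were lower. T cell markers lay below 0 in 8 of 8 (median -0.18) and macrophage markers above 0 in 8 of 8 (median 0.25). Beside them, 7 of 7 translocation, 5 of 5 signal peptidase and 11 of 11 oligosaccharyltransferase genes lay below 0, as did 53% of all genes. The signs of the B cell, T cell and macrophage markers held with each other scaling. Without vehicle library 1, however, 4 macrophage markers lay above 0 and 4 below, with a median of 0.00, while B cell markers stayed below 0 in 10 of 10. The part of these cell types in the ER gene values was not tested.

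**Figure D5:**
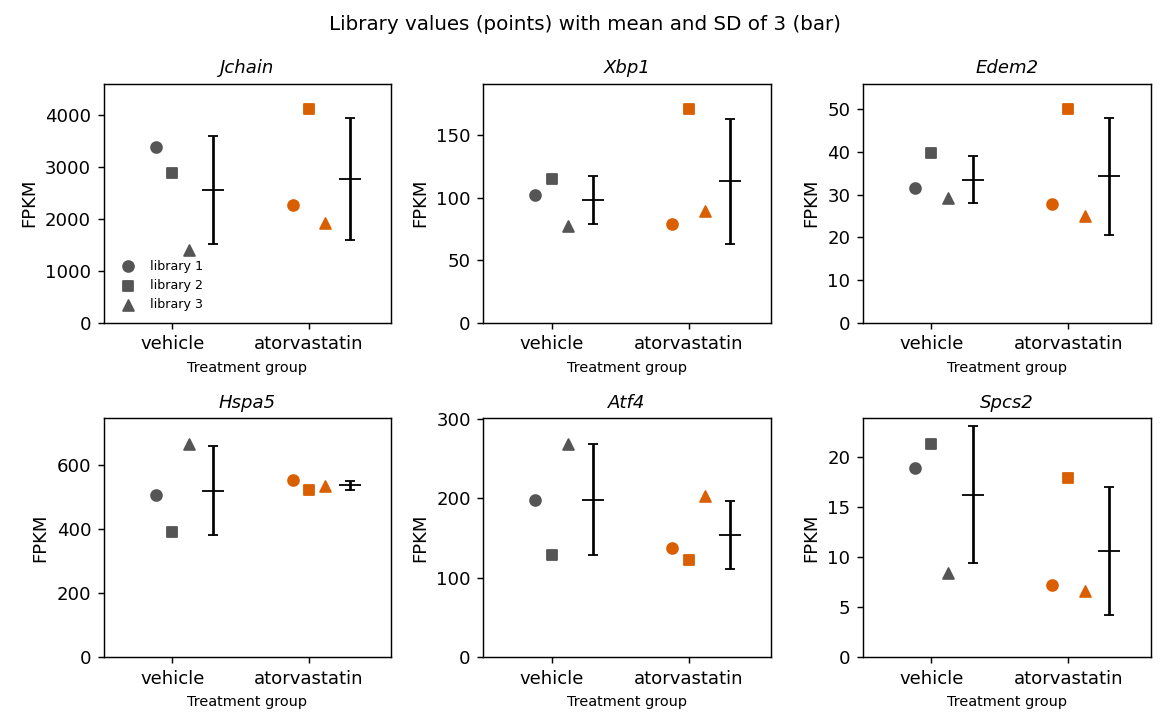
FPKM in each library (points, shapes for library numbers) with the mean and SD of 3 libraries (bars) for *Jchain*, *Xbp1*, *Edem2*, *Hspa5*, *Atf4* and *Spcs2*. Atorvastatin library 2 is the highest for *Jchain* (4117.39), *Xbp1* (171.00) and *Edem2* (49.96), the lowest for *Atf4* (122.19), and inside the range of the other libraries for *Hspa5* and *Spcs2*.

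Without atorvastatin library 2 the comparison looked different. The groups then did not overlap in 18 of the 38 genes, 16 lower and 2 higher with atorvastatin, against 27.7% of all genes (12.8% lower, 14.9% higher). The lower genes were all 5 of the signal peptidase, *Sec61b*, *Ssr1* and *Ssr4* of translocation, *Dnajb11*, *Sdf2l1*, *Creld2*, *Pdia4*, *Edem1*, *Edem2*, *Herpud1* and *Trib3*, and the higher genes *Hyou1* and *P4hb*. The members' median difference was -0.18, and that of the signal peptidase genes -0.35. At an unadjusted p under 0.05 there were 5 of 38 (7.49% of all genes): *Sec61b* (-0.45), *Ssr4* (-0.38), *Spcs2* (-1.03), *Sec11a* (-0.38) and *Sec11c* (-0.35). The lowest adjusted p among them was 0.65 in limma, for *Sec11a*. Markers of several cell types were lower in that comparison too: 11 of 12 plasma cell markers had differences below 0 (median -0.22, 5 without overlap), as had 10 of 10 B cell markers (median -0.45, 7 without overlap) and 5 of 5 measured epithelial markers (median -0.89, 5 without overlap). Other cell types went the other way. Macrophage markers lay above 0 in 8 of 8 (median 0.20, 0 without overlap) and fibroblast markers in 6 of 7 (median 0.24, 4 without overlap). The part of these cell types in the comparison was not tested. Atorvastatin library 2 was singled out after its values were seen. Without atorvastatin library 3 instead, 23 members had differences above 0 and 15 below (median 0.05). Of the 12 plasma cell markers 10 then lay above 0 and 2 below (median 0.14). B cell markers stayed below 0 in 10 of 10 and the measured epithelial markers in 5 of 5. So the direction for the members and plasma cell markers depended on which library was left out.

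Leaving out a vehicle library also moved the counts. Without vehicle library 3 the groups did not overlap in 7 of 38 (28% of all genes). They were higher with atorvastatin for 5 (11% of all genes), *Hspa5*, *Hyou1*, *P4hb*, *Ddit3* and *Sec61g*, and lower for 2 (17%), *Spcs2* and *Trib3*. Without vehicle library 2 the count was 5 (28.1%), 3 of them higher (12.3%) and 2 lower (15.8%). Without vehicle library 1 it was 4 (22.9%), 3 of them higher (8.92%) and 1 lower (14%). Without vehicle library 1, *Ssr2* and *Hyou1* (0.46, unadjusted p = 0.0481) were the 2 members at an unadjusted p under 0.05 in limma, against 5.46% of all genes, and there were 0 of 38 without vehicle library 2 (8.54%) or vehicle library 3 (8.4%).

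A wider list of 130 ER and transport genes gave the surroundings. Of these 126 passed the filter, 51 with differences above 0 and 75 below (53% of all genes lay below 0), and 0 passed the test. At an unadjusted p under 0.05 there were 3 higher (3.13% of all genes) and 2 lower (4.04%), each with an adjusted p = 0.692 in limma. *Wfs1*, an ER membrane protein induced by the unfolded protein response, had 4.66, 5.47 and 5.00 FPKM with vehicle and 7.60, 7.19 and 6.64 FPKM with atorvastatin, without overlap (difference 0.43, SE 0.11, unadjusted p = 0.00539). *Sec24d* and *Sec24a*, cargo adaptors of the COPII coat that carries proteins from the ER to the Golgi, had 14.51 to 15.69 and 7.71 to 8.28 FPKM with vehicle and 17.61 to 18.93 and 9.14 to 10.22 FPKM with atorvastatin (differences 0.27 and 0.25). Neither overlapped between the groups. *Srp72*, of the signal recognition particle, and *Tusc3*, of the oligosaccharyltransferase, had differences of -0.47 and -0.27. *Srp72* ranged from 11.41 to 18.32 FPKM with vehicle and from 10.07 to 11.84 FPKM with atorvastatin, which overlap, and *Tusc3* from 7.07 to 8.35 and from 5.97 to 6.65 FPKM, which do not.

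By role, the 11 oligosaccharyltransferase genes, which attach sugar chains to new proteins, all had differences below 0, with a median of -0.10 (10, 8 and 10 of 11 with median-of-ratios scaling, equal sums and the length trend removed). Of the ER to Golgi transport genes 14 of 23 lay above 0, with a median of 0.09. The most abundant gene of each group did not pass the test. For *Ppp1r15a*, the phosphatase subunit that restores translation after PERK signalling, the levels were 353.43, 288.63 and 508.11 FPKM with vehicle and 287.37, 352.03 and 496.79 FPKM with atorvastatin. Library 3 was the highest in both groups, and the difference was -0.01. *Mzb1*, a plasma cell chaperone partner, had 63.80 to 137.05 FPKM and *Txndc5*, an isomerase also rich in plasma cells, 32.21 to 90.25 FPKM, both highest in atorvastatin library 2. The others were *Srpr*, the receptor of the signal recognition particle (difference 0.22), *Tram1* at the channel (-0.20), *Ddost* of the oligosaccharyltransferase (-0.10), *Ganab*, a glucosidase that trims sugar chains (-0.04), *Vcp*, the ATPase that extracts degradation substrates (-0.02), and *Surf4*, a cargo receptor (-0.03).

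Heat shock genes outside the ER (of the cytosol and, for *Hspd1* and *Hspe1*, of mitochondria) and early response genes, which can be induced when tissue is dissociated, were read beside the ER genes. Of these 15 genes 12 had differences above 0 and 3 below, with a median of 0.24, a split that held with each other scaling, and 0 passed the test. The groups did not overlap in 3, all higher with atorvastatin (5.53% of all genes): *Hspa1a*, *Hspa1b* and *Jun*. The count was 6 with equal sums (15.6% of all genes), where 5 had an unadjusted p under 0.05 in limma (7.88%), and 11 without atorvastatin library 2 (27.7%). *Hspa1a*, the inducible cytosolic Hsp70, had 1611.79, 1571.35 and 1387.09 FPKM with vehicle and 2135.96, 1719.83 and 2322.06 FPKM with atorvastatin. Atorvastatin library 2 was the lowest of its group there, the reverse of its place for most ER genes. *Hspa1b*, close by on chromosome 17, ranked the libraries in the same order, with a difference of 0.44 against 0.43 for *Hspa1a*. These genes may therefore not count as separate signals. The difference between the lists was not tested.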

How the data were processed

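RNA of lamina propria cells was measured in 6 libraries, 3 per treatment. The deposited values are FPKM, scaled by the authors to gene length and library size. FastQC 0.11.2, Bowtie and build mm10 are named in the submitters' processing notes, while for the quantifier, the annotation and the use of strand nothing is given in the sources used here. Unstranded counting would mix a gene with its antisense partner. Counts and their depth could not be recovered from values with 2 decimals, so the limma route of the design for normalized values was used. GENCODE M21 gave symbols to 55141 gene IDs and none to 260, with the same start and end for 51957.

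The 13590 genes at 1 FPKM or more in 3 or more libraries were tested on log2(FPKM + 1), which understates changes of low genes, with limma 3.58.1 (limma-trend, R 4.3.3), Benjamini-Hochberg adjusted over all of them at 0.05. The fit was tested on simulated data. The members and lists were chosen with earlier results of these data known. By rule, values in every library were given for the 2 most abundant members of each role, the sensors, *Atf4*, *Ddit3* and *Trib3*, and members at an unadjusted p under 0.05. Of the wider list, *Xbp1*, the genes under 0.05 and the most abundant of each group were named. Alternatives were pseudocounts of 0.1 and 0.5, other filters, scalings, robust variance, removal of the length trend, a replicate block and leaving out each library. The scalings of the count of highest libraries were added after seeing the data. Protein sequence features were planned and not analysed here.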

Additional observations from a re-analysis of the deposited data

How the results depend on the processing

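Of 570 differences (38 genes under 15 alternatives) 515 kept their sign, 55 changed it, 0 passed the threshold, and the lowest adjusted p was 0.577 in limma. In 20 of the 38 genes the sign never changed. With equal sums the sign changed for *Sec61a1* (0.07), *Dnajb11* (0.00), *Manf* (0.02), *Pdia4* (0.04), *Pdia6* (0.02), *Edem2* (0.05), *Sel1l* (0.01), *Herpud1* (0.06) and *Eif2ak3* (0.03). With the length trend removed it changed for *Pdia4* (0.02), *Edem1* (-0.03), *Edem2* (0.01) and *Herpud1* (0.04), and with median-of-ratios scaling for *Sec61a1* (0.02), *Edem2* (0.00) and *Herpud1* (0.01). The count of members whose groups do not overlap was 1 with median-of-ratios scaling and 3 with the length trend removed, against 2. The share of all genes under these settings is not given here, so the changes in count cannot be set beside a background. The cause was not tested.

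Over the fits that leave out 1 library each, that count ran from 2 to 18, the count at an unadjusted p under 0.05 from 0 to 5, the members' median from -0.18 to 0.05, and the count of all genes past the threshold from 0 to 3. The ranges of the differences that changed sign were -0.03 to 0.07 (*Canx*), -0.37 to 0.13 (*Creld2*), -0.20 to 0.02 (*Dnajb11*), -0.16 to 0.18 (*Dnajb9*), -0.07 to 0.09 (*Dnajc3*), -0.19 to 0.11 (*Edem1*), -0.32 to 0.16 (*Edem2*), -0.21 to 0.11 (*Eif2ak3*), -0.15 to 0.07 (*Herpud1*), -0.12 to 0.12 (*Hsp90b1*), -0.11 to 0.27 (*Hspa5*), -0.14 to 0.09 (*Manf*), -0.24 to 0.09 (*Pdia4*), -0.14 to 0.04 (*Pdia6*), -0.26 to 0.21 (*Sdf2l1*), -0.09 to 0.06 (*Sec61a1*), -0.34 to 0.13 (*Sec61g*), -0.22 to 0.14 (*Sel1l*) and -0.20 to 0.35 (*Xbp1*).

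The deviations of libraries with the same replicate number had r across genes of -0.109, 0.137 and -0.0151. Those of libraries with different numbers had -0.162 to 0.192. With 3 libraries per group these values cannot show whether the numbers pair the libraries, and the labels do not say. With the replicate number as a block 0 members passed, 0 had an unadjusted p under 0.05, 2 did not overlap and the members' median was -0.05. The share of all genes at that unadjusted p with the block is not given here. The fragment depth is unknown, so no counting error is given, and 3 libraries per group limit what the test calls.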
